A study of Homo sapiens with 16 samples.

Results

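Broad domains of H3K27ac in K562, a human erythroleukemia cell line, were taken from 14 peak lists of ChIP-seq libraries. Peaks of all lists with a q-value of at most 1% that overlapped or touched were merged, and a merged region was kept as a broad domain when every list had a peak in it and its width was at least 8000 bp. This rule left 1370 domains among 18472 regions common to the 14 lists, and among 170159 merged regions in all. The domains were 7.42% of the common regions but held 16.3 of their 69.8 Mb, which is 23.3%. Because width and presence in every list chose the domains, both are given only as a description.

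Every ChIP used chromatin of fixed, untreated K562 cells and an antibody to H3K27ac. The chromatin amount was measured as DNAchrom, the DNA content of the soluble chromatin, and the titer is the ratio of antibody to DNAchrom relative to the optimal ratio. In the fixed antibody group, 0.25 µg of antibody was given to 7 amounts of DNAchrom in steps of about 2 times from 0.31 to 20 µg, so that the titer fell from 32 over 16, 8, 4, 2 and 1 to 0.5. In the normalized antibody group, the same 7 amounts of DNAchrom received antibody in proportion, at titer 1. A library is named by its DNAchrom in µg and its titer, as in 0.31-T32, and the fixed antibody library of the third amount, K562-H3K27ac-1.25-T8 in the labels, is called the titer 8 library. Conditions had a single library each. The exception is the pair 10-T1a and 10-T1b of equal titer and DNAchrom, placed in the fixed and the normalized group, respectively. The study lists each group with an input library of its own, so group, input and preparation cannot be told apart, and titer cannot be told apart from DNAchrom within the fixed antibody group.

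H3K27ac, an acetylated lysine in the tail of histone H3, marks nucleosomes that flank active promoters and enhancers. It is written by the acetyltransferases EP300 and CREBBP, read by bromodomain proteins and removed by histone deacetylases. Most of its stretches are short, and long ones are known to lie at enhancer clusters and at promoters of genes that define a cell type. A peak caller set for narrow peaks reports each stretch of signal above its threshold as a peak of its own, so that 1 broad domain can be listed as many peaks.

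The cell line could be recognised in the domains. The transcription start site (TSS) of 802 protein-coding genes lay in a domain, 4.09% of the 19630 genes placed. Of 20 transcription factors of erythroid cells and of K562, 11 had their TSS in a domain: GATA1, GATA2, KLF1, MYB, LMO2, LDB1, NFE2, HHEX, CBFA2T3, STAT5A and STAT5B. GATA1, GATA2 and KLF1 are master regulators of erythroid and early blood cells, MYB keeps blood progenitors dividing, and LMO2 and LDB1 build a complex with GATA1. A domain lay in the gene or within 5 kb of the TSS for 16 of these 20 factors, against 7.88% of all genes. Of the 10 markers of K562 as an erythroleukemia line, GATA1, KLF1 and NFE2 had their TSS in a domain and 7 had a domain in the gene or within 5 kb, while 0 of 10 markers of other blood and neural cells had either. The lists were chosen with earlier results of these data known, so these counts are descriptions.

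The promoters of 5 of these factors are shown because their domains are followed through the libraries below, and each lies inside its domain. Each is the 250 bp before the RefSeq gene start in GRCh38.p14, read 5′ to 3′ on the strand of the gene, and capitals mark matches to the motifs named next.
GATA1: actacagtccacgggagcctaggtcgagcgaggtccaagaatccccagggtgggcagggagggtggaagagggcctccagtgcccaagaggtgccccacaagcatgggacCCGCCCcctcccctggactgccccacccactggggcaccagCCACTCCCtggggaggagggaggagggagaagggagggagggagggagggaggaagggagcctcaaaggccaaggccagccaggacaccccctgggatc
KLF1: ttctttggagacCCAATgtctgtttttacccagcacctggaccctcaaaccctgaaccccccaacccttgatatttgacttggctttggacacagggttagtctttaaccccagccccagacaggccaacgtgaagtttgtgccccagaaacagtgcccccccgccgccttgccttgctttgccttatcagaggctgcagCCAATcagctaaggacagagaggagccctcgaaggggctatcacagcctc
GATA2: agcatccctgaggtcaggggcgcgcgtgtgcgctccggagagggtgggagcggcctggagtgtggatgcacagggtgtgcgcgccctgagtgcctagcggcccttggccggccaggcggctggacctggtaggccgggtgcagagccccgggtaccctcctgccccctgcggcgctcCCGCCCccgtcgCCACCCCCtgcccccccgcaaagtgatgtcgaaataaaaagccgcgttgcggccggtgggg
MYB: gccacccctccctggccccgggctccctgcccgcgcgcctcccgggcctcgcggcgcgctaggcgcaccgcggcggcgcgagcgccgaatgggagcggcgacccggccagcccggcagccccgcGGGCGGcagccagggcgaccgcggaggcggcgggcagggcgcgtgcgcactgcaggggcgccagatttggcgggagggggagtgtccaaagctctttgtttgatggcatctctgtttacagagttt
HHEX: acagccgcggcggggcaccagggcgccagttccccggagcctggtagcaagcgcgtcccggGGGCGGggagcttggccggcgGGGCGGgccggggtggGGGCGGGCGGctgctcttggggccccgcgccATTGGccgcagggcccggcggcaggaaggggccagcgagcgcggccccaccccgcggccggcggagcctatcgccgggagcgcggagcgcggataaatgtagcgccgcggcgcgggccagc
They lie at chrX:48786340-48786589, chr19:12887202-12887451, chr3:128493202-128493451, chr6:135181058-135181307 and chr10:92689705-92689954, with KLF1 and GATA2 on the minus strand.

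Motifs were searched on both strands. They were AGATAA for GATA factors, CCACNCCC for KLF factors, TATAAA for the TATA box and CCAAT for the box of that name. Also searched were GGGCGG for the GC box, CCGGAAG for ETS factors, TGANTCA for AP-1 and CAGCTG for the E-box. In the HHEX promoter 2 GC boxes overlapped. Of the 646 genes with their TSS in a domain whose promoter was in the table, 440 held a GC box, which is 68.1% against 68.3% of the 5280 promoters of narrower common regions and 55.8% of all 15812 promoters. A KLF motif was in 22.4% of the domain promoters, 18.4% of those in narrower common regions and 18.5% of all. AGATAA was in 3.72, 3.88 and 6.91%, CCAAT in 26.9, 32.4 and 34.4%, and the ETS motif in 16.3, 18.6 and 11.7%. For the GC box and AGATAA the domains were thus close to the narrower common regions. Base composition moved with these shares, since the domain promoters had a median of 66.6% G and C and 21 CpG against 62.0% and 17 CpG in all promoters, and the narrower common regions had 65.6% and 22 CpG. Its part in the motif shares was not tested. A match is a description of the letters and says nothing on whether a factor binds.

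The other gene lists are read against the 4.09% of all genes with their TSS in a domain. Of 20 red cell genes, 4 had their TSS in a domain, among them SLC25A37 (the mitochondrial iron importer) and FECH (the last enzyme of heme synthesis). The start of the heme enzyme gene ALAS2 lay in a common region of 7883 bp, just under the width limit. HBA1, HBA2, HBG1 and HBG2 had their TSS in no region. These are near-identical gene copies, at which reads may not be placed uniquely, and the part of this was not tested. Among 15 housekeeping genes, ENO1, GAPDH and LDHA, all enzymes of glycolysis and lactate formation, were in domains, while 11 others, ACTB with a region of 6639 bp among them, were in narrower common regions. Of 12 immediate early genes, JUNB was in a domain. MYC had its start in a region of 6804 bp and had 0 domains within 5 kb. Of 15 writers, readers and erasers of acetylation, 0 had their TSS in a domain and 14 had it in a narrower common region. Of 15 lymphoid and neural genes, 0 had a domain.

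A TSS lay inside 584 of the 1370 domains, or 42.6%, against 32.5% of the 17102 narrower common regions. Of these domains, 411 held 1 TSS and 173 held 2 or more, up to 5. A further 569 domains overlapped a gene without holding a TSS and 217 lay between genes. For the 786 domains without a TSS, the median distance from an end to the nearest TSS was 24334.5 bp. In 155 of them the TSS was within 5 kb of an end, and the domains at BCL2L1, PIM1, ZFP36L2 and CPEB4 ended 16, 4, 4 and 18 bp short of it. In 232 the nearest TSS was over 50 kb away. The share of common regions that were broad ranged from 2.66% on chromosome 13 to 10.4% on chromosome 16. A TSS is here the 5′ end of the RefSeq gene, and other start sites of a gene were not used.

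The median width was 10460 bp, with quartiles of 9026 and 12983 bp, against 2787 bp in the narrower common regions. Of the domains, 593 were narrower than 10000 bp and 72 had 20 kb or more. The widest spanned 47875 bp at chr20:31676073-31723947 in BCL2L1, which encodes the antiapoptotic protein BCL-XL. GSE1 followed with 46939 bp. The domain at chr8:127886900-127930868, with 43969 bp, lay between protein-coding genes, 151465 bp from the MYC TSS. SLC2A1, the glucose transporter GLUT1, had 41916 bp and SEMA4C had 39122 bp. SLC25A25, PICALM, REXO1, MAGIX and C20orf203 completed the 10 widest, with C20orf203 at 31683 bp. The domain named for PICALM lay between genes, with the nearest TSS 62679 bp from an end. Just inside the limit were domains of 8001, 8002 and 8004 bp, named for BLOC1S4, TFDP2 and SDE2, with covered shares from 16.9 to 99.8% over the 14 lists. Just outside were 3 regions of 7999 bp on chromosomes 7, 15 and 17, with shares from 23.1 to 89.4%. Some neighbouring domains were close. Of 1347 neighbouring pairs 73 were less than 1 kb apart, and the domains of MTSS2 and VAC14 were separated by 37 bp. Pairs within E2F3, ACTN4, CNST and VPS13D were 58 to 74 bp apart.

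The width belongs to the merged lists and not to a single library. In 763 domains, 55.7%, 0 of the 14 lists had a peak of 8000 bp or more. In 154 domains at least 7 lists had such a peak. The domain at PTPN7, a tyrosine phosphatase of blood cells, was alone in having such a peak in all 14 lists. It spans 17106 bp at chr1:202153183-202170288, and its covered share was 68.3% in 0.31-T32 and 79.9 to 94.6% in the normalized lists. The widest single peak was one of 25929 bp in 10-T1a, inside GSE1. Of all domain bases, 29.1% were under a peak in all 14 lists and 2.84% in 1 list only. The share of a domain's bases found in all 14 lists had a median of 26.9% and quartiles of 16.6 and 37.3%, and it was highest at PIM1, a kinase gene induced by STAT5, with 86.2%. MAPKAPK3, USP20, a domain of 12525 bp in BCL2L1 and RHOG followed with 84.6, 83.0, 79.7 and 78.3%. In 121 domains more bases than not were in all 14 lists.

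The covered share of a domain, the percentage of its bases under the peaks of 1 library, was lowest at high titer. Along the fixed antibody libraries, from 0.31-T32 to 20-T0.5 in order of DNAchrom, its median over the 1370 domains was 43.6, 52.5, 54.7, 65.0, 75.5, 78.0 and 78.0%. Along the normalized libraries, from 0.31-T1 to 20-T1, it was 72.7, 80.1, 83.6, 81.6, 86.3, 84.7 and 83.6%. Both groups were lowest at 0.31 µg, and the medians of the 4 libraries of titer 4 and above lay below all 7 normalized ones. The narrower common regions had lower medians in every list, from 36.5 to 70.7% in the fixed antibody group and from 60.8 to 78.0% in the normalized group.

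**Figure D1:**
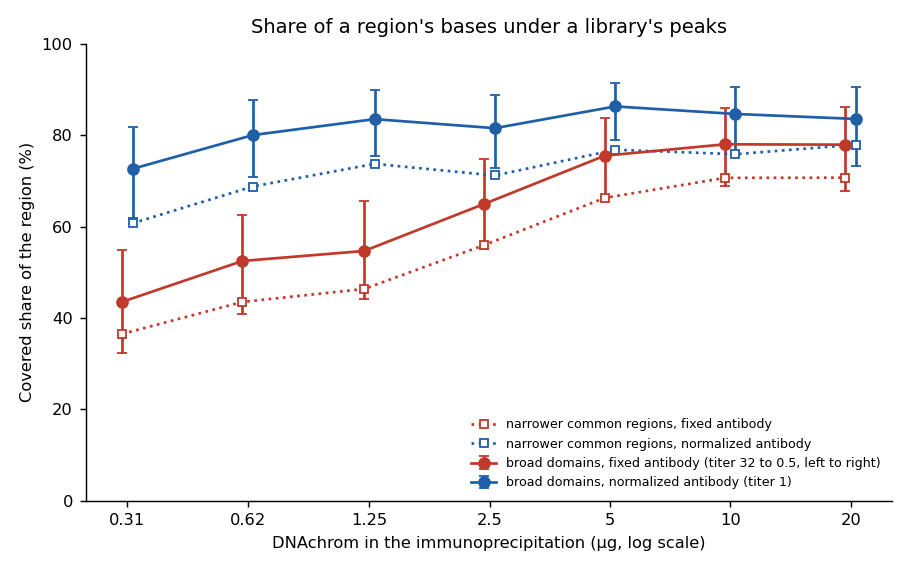
Median covered share (y axis, percent) of the 1370 broad domains (filled circles, bars from the lower to the upper quartile) and of the 17102 narrower common regions (open squares) against DNAchrom in µg (log scale), in 7 fixed antibody and 7 normalized antibody libraries. The domains rise from 43.6 to 78.0% in the fixed antibody libraries and lie between 72.7 and 86.3% in the normalized ones.

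Across the 7 fixed antibody libraries, the covered share fell with log2 titer in 1074 of the 1370 domains, 78.4%, against 48.6% of all 18472 common regions tested (exact permutation test over all pairings of the 7 libraries, two-sided, Benjamini-Hochberg adjusted p under 0.05 over all common regions). It rose in 0 domains and in 0.0379% of all. At an unadjusted p under 0.05, 1190 domains fell, 86.9% against 61.8%, and 1 rose, against 0.0812% of all. The median slope was -5.73 percentage points per doubling of titer, and it was -5.74 over all common regions. The slope was below 0 in 1362 domains. Among the domains with a TSS inside 447 of 584 fell, and among those without 627 of 786 fell, with median slopes of -5.50 and -6.02. The covered share in 0.31-T32 was the lowest of all 14 in 998 domains. Without 0.31-T32 the median slope was -5.41 and 0 domains and 0% of all common regions passed. At an unadjusted p under 0.05, 66.7% of the domains fell, a share not counted over all common regions. Without 2.5-T4, 24.5% of the domains passed against 11.8% of all, and without 10-T1a, 49.8% against 25.6%.

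The whole list shrank along with the domains. Its peaks covered 32.8 Mb in 0.31-T32, 65.3 Mb in 10-T1a and 54.4 to 75.3 Mb in the normalized lists, and the domains held 22.4% of the covered bases in 0.31-T32, 19.3% in 10-T1a and 18.1 to 21.6% in the normalized lists. When each covered share was divided by the covered length of its list, the median slope over titer turned to 1.84. Then 0.438% of the domains fell, against 0.19% of all common regions. A rise was called in 1.82% of the domains and was not counted over all common regions. The fall is thus one of the cover itself, and it was not seen relative to the cover of the list.

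At titer 1, more DNAchrom went with a small gain. The median slope over the 7 normalized libraries was 1.27 percentage points per doubling of DNAchrom and it was above 0 in 1205 domains. Without 0.31-T1 the median slope was 0.44. Then 7.23% of the domains rose at an unadjusted p under 0.05, a share not counted over all common regions. Divided by the covered length of the list, the median slope turned to -1.78. After adjustment 0 domains passed and 0 of all common regions did (exact permutation test). At an unadjusted p under 0.05, 269 domains rose, 19.6% against 15.5% of all common regions, and 1 fell, against 0.2% of all. In 924 domains 0.31-T1 was the lowest of the 7 normalized libraries.

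At matched DNAchrom the normalized library covered more of most domains. The median difference, normalized minus fixed, was 27.4 percentage points at 0.31 µg, 26.4 at 0.62 µg, 26.1 where the fixed titer was 8, 15.3 at 2.5 µg and 9.39 at 5 µg. It was 5.66 at 10 µg, where both libraries had titer 1, and 4.12 at 20 µg. At 10 µg the normalized library covered more in 990 domains, 72.3% against 61.1% of the narrower common regions. In the narrower common regions the median differences were near those of the domains. From 0.31 to 20 µg they were 22.05, 23.3, 24.8, 13.7, 9.06, 4.33 and 5.84 percentage points. The difference between libraries of the same condition is the only measure of library error here, and the differences where the fixed titer was 8 or above were over 4 times as large. In 1039 domains, 75.8% against 50.8% of all common regions, the normalized library covered more at each of the 5 amounts where the fixed titer was over 1. The peaks of the normalized lists also set the extent of many domains, so the count was taken again in regions built from the fixed antibody lists only, where it was 349 of 583, or 59.9% against 39.4% of all. The fall of this difference with DNAchrom was tested as its own slope, which had a median of -4.52 percentage points per doubling. After adjustment 0 domains passed (exact permutation test), and 828 did at an unadjusted p under 0.05, 60.4% against 25.7% of all common regions. In regions built from the fixed antibody lists only, 20.7% of the domains passed the adjusted test against 4.08% of all. Divided by the covered length of the list, the median slope turned to 0.26. Then 14.7% of the domains fell at an unadjusted p under 0.05, a share not counted over all common regions. Without this division, 6 domains had a slope of the opposite sign at that threshold, 0.438% against 0.65% of all common regions.

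The 5 libraries of titer over 1 were also set against the 9 of titer 1 or 0.5. All 5 were fixed antibody libraries, while 7 of the 9 were normalized ones. Titer can thus not be fully told apart from group and input here, and the permutations kept neither group nor DNAchrom. The covered share was lower in 1118 domains, 81.6% against 59.2% of all common regions (exact permutation test over all choices of 5 of the 14 libraries, two-sided, adjusted p under 0.05), and higher in 0, against 0.162% of all. At an unadjusted p under 0.05, 1180 were lower, 86.1% against 65.5%, and 1 was higher, against 0.238% of all. The median difference was -20.7 percentage points. In 319 domains, 23.3% against 12.8%, each of the 5 libraries lay below each of the 9, and in 0 domains above, against 0.0108% of all. Divided by the covered length of the list, the median difference over the domains turned to 7.41. Then 9.93% of the domains were lower, against 8.51% of all common regions, and 36.1% of the domains were higher. The share of all common regions that was higher was not counted, so the turn cannot be called particular to the domains.

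Peaks broke the domains into more pieces at high titer. From 0.31-T32 to 20-T0.5, the mean number of peaks per domain was 7.17, 7.18, 7.14, 6.61, 5.50, 4.97 and 4.75. The normalized lists had 5.32 in 0.31-T1 and 3.98 to 4.82 in the others. In the narrower common regions the mean was 1.73 to 2.12 in every list. From 0.31-T32 to 10-T1a the number was lower in 985 domains (71.9%), equal in 144 and higher in 241 (17.6%). In the narrower regions it was lower in 31.1% and higher in 25.2%. By the rule each common region has at least 1 peak in every list, so a region of few peaks has little room for a lower number. A domain was a single peak in 4 to 10 cases in the 4 lists of titer 4 and above, in 51 in 10-T1a and in 21 to 112 in the normalized lists. In 1046 domains 0 lists had a single peak. A peak of 8000 bp or more was found in 2 domains in 0.31-T32, in 195 in 10-T1a and in 366 in 5-T1, and the widest peak of a domain had a median of 1642.5, 4765 and 6119.5 bp in these lists.

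**Figure D2:**
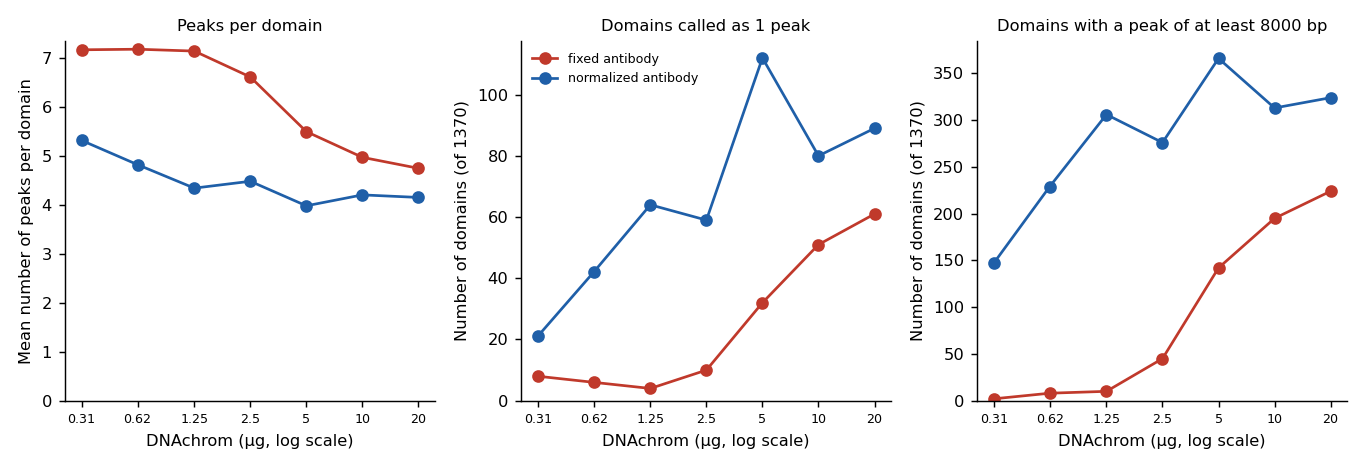
Mean number of peaks per domain (left), number of domains listed as 1 peak (middle) and number with a peak of at least 8000 bp (right), of 1370 domains, against DNAchrom in µg (log scale) in the fixed and the normalized antibody libraries. The mean falls from 7.17 to 4.75 in the fixed antibody libraries, and domains with such a wide peak rise from 2 to 224.

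The gaps between the peaks were short. In 0.31-T32 there were 8448 gaps with a median of 394 bp, of which 20.4% exceeded 1 kb. In 10-T1a there were 5439 with a median of 287 bp, and 8.07% exceeded 1 kb. In the normalized lists the medians were 266.5 to 295 bp. As a slope over log2 titer, the number of peaks rose by a median of 0.43 per doubling, but 0 domains and 0 common regions passed the adjusted test (exact permutation test). At an unadjusted p under 0.05, 413 domains rose, 30.1% against 5.87% of all common regions, and 16 fell, 1.17% against 1.39%. In 71 domains, 5.18% against 0.704%, each library of titer over 1 had more peaks than each of the others. Counted per kb of covered bases, 484 domains passed the adjusted test, 35.3% against 12.8%, with a median slope of 0.16 peaks per kb. The covered bases themselves fell with titer in most domains, so this ratio can rise where the number of peaks does not.

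The ends of a domain were covered less often than its middle in every list, which follows in part from the rule, since a domain ends where the outermost peak of any list stops. In the middle 20% of the width, peaks covered 52.7% of the bases in 0.31-T32, 86.4% in 10-T1a and 82.5 to 91.7% in the normalized lists. At each end, the outer 10% were covered to 25.9%, 53.2% and 45.0 to 65.0%. In the fixed antibody group, the drop from middle to ends was smallest in 0.31-T32, with 26.7 percentage points, and largest in 20-T0.5, with 35.3. Between them it mostly grew as the titer fell, but 2.5-T4 had 34.2, 5-T2 had 32.5 and 10-T1a had 33.3. The normalized lists, all at titer 1, had 26.6 to 37.6. Bases that all 5 lists of titer over 1 missed and all 9 others covered were 0.516% of the domain bases, and they reached 1 kb in a single domain, with 1091 bp, at chr8:128040660-128070887 between genes, nearest to MYC.

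**Figure D3:**
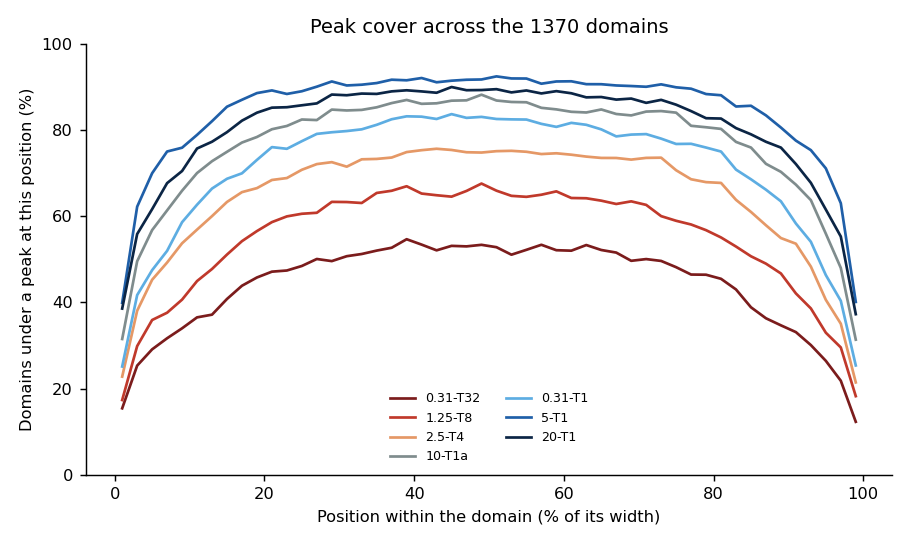
Percentage of the 1370 domains under a peak (y axis) at each position from the left to the right end of the domain, in percent of its width (x axis), for 7 of the 14 libraries. All curves are lowest at the ends, and 0.31-T32 reaches 54.7% at its highest where 5-T1 reaches 92.5%.

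Domains with a TSS extended mostly into the gene. In the 411 domains with 1 TSS, peaks covered 66.5% of the 2 kb after the TSS and 42.2% of the 2 kb before it in 0.31-T32. In 10-T1a they covered 89.9 and 66.6%, and in the normalized lists 86.8 to 93.1 and 61.6 to 71.4%. Just before the TSS the cover dipped. In 0.31-T32 it was 57.7% around 375 bp before the TSS, 46.1% around 125 bp before it, 76.9% around 125 bp after it and 82.7% around 375 bp after it. The corresponding values were 82.3, 74.3, 92.3 and 94.4% in 10-T1a and 84.2, 80.8, 96.8 and 96.9% in 5-T1. The dip between the upstream bins was thus present in all 3 lists, and the maximum was in the same bin after the TSS in all 14. The stretch before a start site is known as the nucleosome-depleted part of an active promoter.

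**Figure D4:**
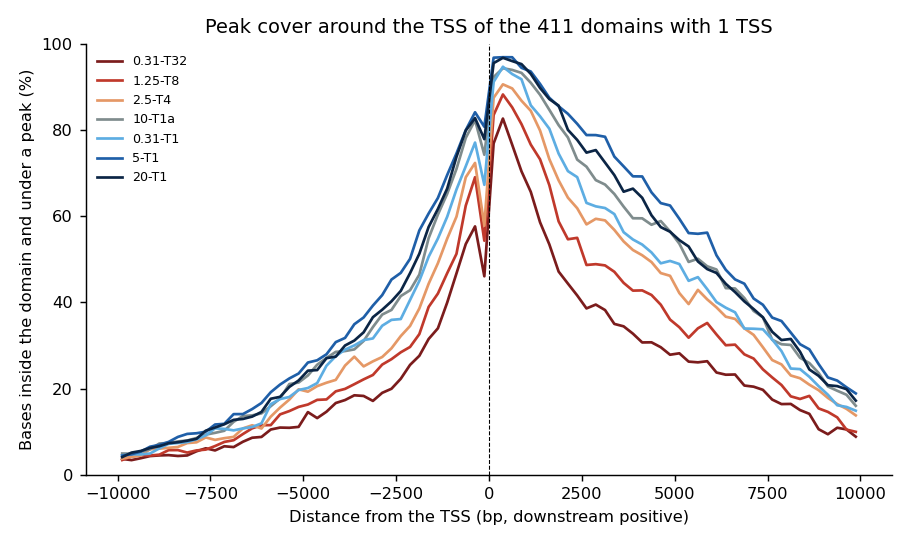
Percentage of bases that lie inside the domain and under a peak (y axis) against the distance from the TSS in bp (x axis, 250 bp bins, downstream positive), in the 411 domains with 1 TSS, for 7 of the 14 libraries. Each curve dips just before the TSS and peaks 375 bp after it, at 82.7% in 0.31-T32 and 96.9% in 5-T1.

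The strongest peak of a domain ranked high in its list. Ranked by the deposited fold enrichment within its own list, it had a median percentile of 91.9 in 0.31-T32, 94.1 in 10-T1a and 94.3 to 95.3 in the normalized lists, against 79.4 to 86.7 in the narrower common regions over all lists. A domain has more peaks from which its strongest is taken, and the part of this was not tested. Over titer the percentile changed in 0 domains after adjustment (exact permutation test). At an unadjusted p under 0.05 it fell in 117, 8.54% against 11.7% of all common regions, and rose in 39, 2.85% against 1.59%. On the log2 of fold enrichment, which is not set on the same scale across the lists, 73.6% passed the adjusted test against 54.1% of all, with a median slope of -0.17 per doubling. In the domains with a TSS, the median summit of the strongest peak lay after the TSS in 400 of 584 and within 1 kb of it in 360. The place of the strongest summit was not fixed. It lay within 500 bp of its median position in all 14 lists in 87 domains, and in 7 lists or fewer in 431.

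The erythroid and K562 transcription factors had 10 domains, because STAT5A and STAT5B share 1. All 10 fell in covered share over titer, as did 78.4% of all domains and 48.6% of all common regions. Their slopes were -9.10 to -2.60 percentage points per doubling, with adjusted p-values of 0.0123 to 0.0252 (exact permutation test). The domain of GATA1 at chrX:48783110-48801619 also holds the TSS of HDAC6, a cytoplasmic deacetylase. Its covered share in the fixed antibody libraries was lowest at 66.0%, with a median of 90.3% and a highest value of 97.6%, and in the normalized libraries these were 92.9, 97.2 and 98.8%. Its 5 values at titer over 1 lay below the 9 others. It was listed as 13 peaks in 0.31-T32, 3 in 10-T1a and 2 in 5-T1.

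KLF1, the erythroid Krüppel-like factor, shares its domain at chr19:12879607-12890817 with DNASE2, whose enzyme degrades the DNA of expelled nuclei. Its covered share was 71.8 to 93.6% in the fixed antibody libraries, with a median of 80.0%, and 91.1 to 97.7% in the normalized libraries, with a median of 93.9%. The 3 libraries of titer 8 and above lay close together, between 71.8 and 73.1%. The domain was 7 peaks in 0.31-T32 and a single peak in 10-T1a, 2.5-T1, 10-T1b and 20-T1. GATA2, at chr3:128479829-128497749, had 65.1 to 92.9% in the fixed antibody libraries with a median of 82.8% and 86.9 to 94.1% in the normalized ones with a median of 91.3%. Here the groups overlapped, since 5-T2 with 92.9% was above 5 of the 7 normalized libraries. Its call was lost with Spearman's rho (exact permutation test, adjusted p = 0.0669).

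MYB, at chr6:135179948-135197931, had the steepest fall of these factors, -9.10 percentage points per doubling (exact permutation test, p = 0.000397, the smallest that the pairings can give, adjusted p = 0.0123). Its covered share rose from 31.4% in 0.31-T32 over 51.9, 57.9, 73.6, 82.4 and 85.4% to 85.8% in 20-T0.5, and it was 85.9 to 94.4% in the normalized libraries with a median of 89.2%. The 5 libraries of titer over 1 did not overlap the others. The median summit of its strongest peak lay 11386 bp after the TSS, inside the gene. HHEX, a homeobox gene of blood and liver progenitors, at chr10:92688402-92698957, had 57.9 to 96.1% in the fixed antibody libraries and 78.1 to 94.9% in the normalized ones, and its highest value was in 10-T1a. LMO2 had 45.8 to 90.6% against 90.5 to 98.0%, NFE2 47.4 to 94.0% against 91.0 to 96.4%, and CBFA2T3 82.3 to 95.8% against 93.9 to 98.4%.

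All 4 red cell domains fell over titer, as did 78.4% of all domains and 48.6% of all common regions. FECH, at chr18:57582821-57591087, had a slope of -11.3 percentage points per doubling (exact permutation test, adjusted p = 0.0123). Along the fixed antibody libraries from 0.31-T32 to 20-T0.5, its covered share was 16.3, 46.2, 51.2, 54.5, 76.9, 83.3 and 88.5%. The values followed the titer without exception. In the normalized group the range was 87.5 to 97.3% around a median of 95.8%. SLC25A37, at chr8:23528904-23537107, had a slope of -5.58 (exact permutation test, adjusted p = 0.0346), with 30.6 to 66.3% in the fixed antibody libraries and 61.0 to 83.6% in the normalized ones, so that the groups overlapped. The 3 housekeeping domains, read against the same shares, fell with slopes of -4.82 for LDHA, -7.58 for GAPDH and -8.13 for ENO1, and JUNB had -4.25.

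**Figure D5:**
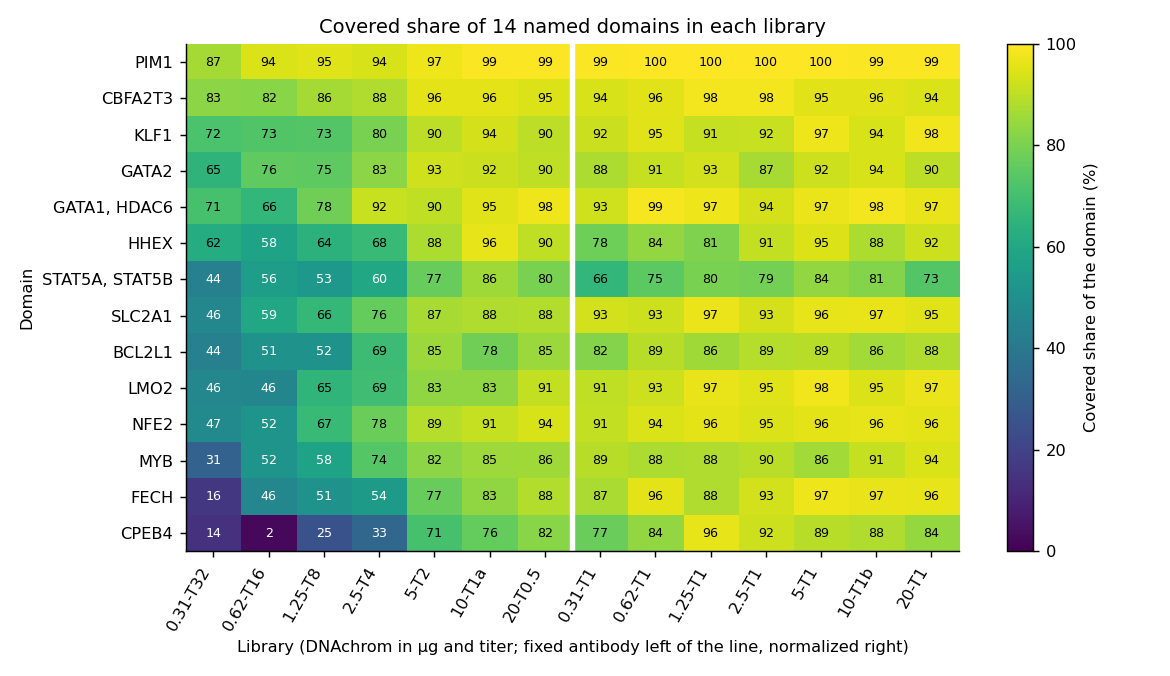
Covered share in percent (colour and printed value) of 14 named domains (rows) in the 7 fixed antibody libraries (left of the white line, titer 32 to 0.5) and the 7 normalized antibody libraries (right). PIM1 stays at 86.6% or above in every library, while FECH goes from 16.3% in 0.31-T32 to 88.5% in 20-T0.5.

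The 10 widest domains, picked by the width that also chose the domains, all fell over titer, with slopes of -9.69 to -3.57. Of all domains 78.4% fell, and of all common regions 48.6%. BCL2L1 had 43.6 to 85.0% in the fixed antibody libraries, with a median of 68.6%, and 81.6 to 89.3% in the normalized ones, with a median of 88.0%. With 23 to 34 peaks in the fixed antibody group and 14 to 21 in the normalized group, it was divided into the most peaks of any domain on average. SLC2A1 rose at each step from 46.2 to 88.3% in the fixed antibody libraries and had 92.5 to 97.2% in the normalized ones, without overlap. It was 31 peaks in 0.31-T32, 15 in 10-T1a and 5 in 10-T1b. The domain between genes nearest to MYC had 33.6 to 75.6% in the fixed antibody libraries and 80.7 to 90.3% in the normalized ones.

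The 8 steepest falls, chosen by their slope and therefore given without a test, had CPEB4, TBK1, FNBP1L, MOB3B, SGMS1, MYO16 and E2F3 among them, with slopes of -14.2 to -11.8. CPEB4, an RNA-binding regulator of poly(A) tails that acts in terminal erythroid cells, had 2.30% in 0.62-T16, 14.4% in 0.31-T32, 25.3% in the titer 8 library, 33.0% in 2.5-T4 and 70.9% in 5-T2, and 76.3 to 96.4% in the 9 libraries of titer 1 or below. Of those named, TBK1 had its TSS inside the domain and the 6 others lay inside a gene without its TSS. The 8 slopes nearest to 0, at -0.31 to 0.42, belonged to domains named for VEGFA, AGRN, S100A4, GPR146, KCNQ1, GPSM1, PHPT1 and LOC124900189. Their covered shares were 28.2 to 79.9% in the fixed antibody libraries and 28.8 to 85.3% in the normalized ones. The domain named for VEGFA lay between genes, 150897 bp from that TSS, and had 28.2 to 48.6% in the fixed antibody libraries.

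At the other end were domains in few peaks. The 6 nearest to 1 peak on average were those named for MAPKAPK3, PBX2, SH2B3, PIM1, ZFP36L2 and ADGRB3. The domain named for ADGRB3 lay between genes, with the nearest TSS 743135 bp from an end. The domain named for MAPKAPK3 also holds the TSS of CISH, a STAT5 target that dampens cytokine signals. It was 5 peaks in 0.31-T32, 3 in 0.62-T16 and 2 in the titer 8 library, 2 in 0.62-T1, and a single peak in the 10 others, with a covered share of 88.8 to 100%. PBX2 was a single peak in 11 lists, the most of any domain. PIM1, at chr6:37170157-37179263, had 86.6% in 0.31-T32, 94.1 to 99.5% in the other fixed antibody libraries and 99.3 to 100% in the normalized libraries. Its slope of -1.83 percentage points per doubling passed the adjusted test (exact permutation test, adjusted p = 0.0187), but with Spearman's rho the adjusted p was 0.0537, and it was 0.0544 without 5-T2, 0.0688 without 10-T1a and 0.0797 without 0.31-T32 (exact permutation tests). SH2B3, an adaptor that restrains JAK2 signalling, was the exception among the 6, with 87.2 to 96.5% in all libraries and a slope of -0.74 that did not pass (exact permutation test, adjusted p = 0.179).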

How the data were processed

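H3K27ac ChIP-seq peaks of 14 K562 libraries were used. Per the labels the build was hg38, with CASAVA 1.4 and BWA 0.5.9, whereas the paper names hg19. Positions run past the ends of the hg19 chromosomes and were read as GRCh38. The authors called peaks in each library with MACS2 in Partek Flow. They deposited each peak's position, fold enrichment (a ratio of signal), -log10 p-value, -log10 q-value and a display score that was not used. The deposited lists reach a -log10 q of 1.3, and peaks with at least 2 were kept. The labels do not give the groups of 10-T1a and 10-T1b, which follow the order of a table in the study's supplement. The lists hold no reads, and read depth was not used here. They held 64083 to 82143 peaks.

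Merging and all 6 tests used Python 3.11.15 with numpy 2.4.6 and pandas 2.3.3, over all 18472 common regions with Benjamini-Hochberg adjustment. The code was tested on simulated data. The p-values measure the spread between libraries, which may be technical. Of 19974 protein-coding genes of RefSeq (GRCh38.p14), 19630 had a strand, taken by gene ID from the RefSeq promoters or by symbol from GENCODE. Members and gene lists were chosen with earlier results of these data known. Named were the 10 widest domains, the 8 steepest and 8 flattest slopes, the 6 in most and the 6 in fewest peaks, 3 on each side of the width limit and those with a TSS of a listed gene. Some domains this rule names are not reported here. PTPN7, USP20, RHOG and the close neighbours were named after their values were seen. Domains were named for the gene with its TSS inside, else the gene overlapped, else the nearest TSS.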

Additional observations from a re-analysis of the deposited data

Results flagged for a closer look

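In 30 sets of 7 libraries, made of library summaries and the covered shares of named domains in each group, 1 value stood apart from the others by more of the range than the 95% limit of Dixon's test allows, and chance gives about 1 in 20. It was the covered share of the PIM1 domain in 0.31-T32, at 86.6%, where the other fixed antibody libraries had 94.1 to 99.5%, a gap of 0.587 of the range. Over all domains, 1.39% had such a value in the fixed antibody group and 8.18% in the normalized group, where 0.31-T1 was the library that stood apart in 88 of 112 domains. It is also the ChIP library for which the study lists the lowest share of uniquely mapped read pairs.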

How the results depend on the processing

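The number of domains, 1370, was 457 with a width of at least 12 kb, 3526 when peaks within 500 bp were merged and 583 in regions built from the 7 fixed antibody lists only, and 1072 to 1405 under the other settings. The share of domains falling over titer was 57.3 to 82.1% under all settings but the division by covered length (0.438%, direction turned) and leaving out libraries (0 to 64.5%). The share lower at titer over 1 was 74.8 to 91.1% under the other settings, 67.1 to 89.4% when a library was left out and 9.93%, with the direction turned, after division by covered length. Counting peaks per covered kb moved the domains with more peaks over titer from 0 to 35.3%, and the log2 fold enrichment moved those with a changed strongest peak from 0 to 73.6%. The fall of the group difference with DNAchrom passed in 20.7% of the domains in regions from the fixed antibody lists only, an alternative chosen after seeing the data, and in 0 under the other settings and without each library. The rise over DNAchrom at titer 1 passed in 0 under every setting run. The slopes of BCL2L1, SLC2A1, GATA1 and HDAC6, GATA2, KLF1, MYB and PIM1 did not pass without 0.31-T32 (exact permutation test, adjusted p = 0.0506 to 0.0945). Divided by covered length, the slope turned for BCL2L1 (0.11), SLC2A1 (1.21), GATA1 and HDAC6 (5.80), GATA2 (6.43), KLF1 (7.38) and PIM1 (12.1), and that of KLF1 passed the adjusted test (exact permutation test, adjusted p = 0.0492). The cause was not tested. No paired analysis was possible because the labels give no replicate numbers, beyond the pairing by DNAchrom in the matched differences and the test of their slope. With 1 library per condition, small differences in cover cannot be resolved.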
